A study of Mus musculus with 30 samples.

Results

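Bone marrow progenitors labelled GMP-MoP and GMP were compared 2 days after lipopolysaccharide (LPS), a cell wall component of Gram-negative bacteria that triggers innate immune responses. The comparison took the 3 libraries labelled LPS GMP-MoP and the 3 labelled LPS GMP, 6 of the 30 RNA sequencing libraries of the series, and covered all 11383 genes of the deposited table. Both groups came from wild-type mouse bone marrow, and both had received LPS. The same populations without LPS, naive GMP-MoP and naive GMP with 3 libraries each, were set beside them. The labels give no sort gates, no LPS dose or route, no animal age and no animal for each library. The labels call the libraries of a group biological replicates. The p-values rest on the spread between libraries of a group, estimated for each gene over all 10 groups of the series, not over the compared groups alone.

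The granulocyte-monocyte progenitor (GMP) is the marrow stage from which neutrophils and monocytes arise, and sorted GMP are known to hold cells already directed to one lineage or the other, as well as progenitors of basophils, mast cells and eosinophils. The series title describes GMP-MoP as carrying features of neutrophil and of monocyte progenitors at once. Monocyte fate depends on the transcription factors IRF8 and KLF4, neutrophil fate on GFI1 and C/EBP factors, and the basophil and mast cell lineages on GATA2. Infection and LPS push the marrow to make more myeloid cells.

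Values are FPKM, fragments per gene corrected for exon length and depth, as deposited by the authors. LPS GMP-MoP libraries held between 25.05 and 34.7 M assigned reads and LPS GMP libraries between 24.5 and 41.3 M, so that 1 FPKM of a gene of 2000 bases stood for 49.0 to 82.6 reads. Counting intervals would cover counting error only, and replicates varied by more than that. A gene was called when its limma adjusted p was under 0.05, after Benjamini-Hochberg adjustment over all genes, and its log2 fold change was at least 1 in size. Fold changes are LPS GMP-MoP over LPS GMP on log2(FPKM + 1), which understates the change of weakly expressed genes, and carry their standard error. By this rule 221 genes were higher in LPS GMP-MoP (1.94% of those tested) and 414 lower (3.64%). The groups did not overlap for 5805 genes (51.0%), so non-overlap alone was common. Both populations had the granule transcripts of myeloid progenitors, with Mpo (myeloperoxidase) at 4546, 4111 and 4002 FPKM in LPS GMP-MoP, against 4379.9, 3822 and 3670.4 FPKM in LPS GMP. Mpo ranges overlapped and the gene was not called (log2 fold change 0.09 ± 0.10, adjusted p = 0.492).

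Transcription factors of the monocyte lineage were among the genes highest in LPS GMP-MoP relative to LPS GMP. Klf4, a zinc finger factor needed for monocyte formation (chromosome 4, 55527143 to 55532466, build GRCm38), had 21.2, 28.5 and 21.8 FPKM in LPS GMP-MoP, against 0.512, 0.4101 and 0.288 FPKM in LPS GMP. Irf8, the interferon regulatory factor that directs progenitors to monocytes and dendritic cells (chromosome 8, 120736358 to 120756694), had 174, 176 and 146 FPKM in LPS GMP-MoP, against 15.5, 15.5 and 10.1 FPKM in LPS GMP. Irf5, which drives inflammatory cytokine transcription in macrophages, had 15.1, 18.1 and 15.7 FPKM in LPS GMP-MoP, against 3.02, 3.45 and 2.48 FPKM in LPS GMP. For each of these regulators all LPS GMP-MoP libraries lay above all LPS GMP libraries. The log2 fold changes were 4.14 ± 0.18 for Klf4 (adjusted p = 2.41e-15), 3.52 ± 0.18 for Irf8 (adjusted p = 3.33e-14) and 2.12 ± 0.19 for Irf5 (adjusted p = 1.21e-09). In bulk RNA, fewer cells of a type and less RNA per cell cannot be told apart. Of the 6 measured monocyte-lineage regulators, 3 were called higher, 0 lower and 3 were not called, with a median log2 fold change of 1.43 against -0.06 over all genes, of which 1.94% were called higher. The members that were not called were Zeb2 (0.75), Id2 (0.17) and Tcf4 (-0.11).

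Chil3 had the greatest log2 fold change of the leading genes. It encodes a chitinase-like protein of myeloid cells, and stood at 398, 347 and 368 FPKM in LPS GMP-MoP, against 27.97, 28.6 and 3.92 FPKM in LPS GMP (4.52 ± 0.63, adjusted p = 2.76e-06). The third LPS GMP library was far below the other LPS GMP libraries, and all were below LPS GMP-MoP. Chil3 shared 41.5% of its 31-base words with other annotated genes, most with Chil4, so its reads may be split between copies. Ly86 encodes MD-1, the partner of the LPS-responsive receptor CD180, and had 78.02, 96.9 and 72.95 FPKM in LPS GMP-MoP, against 2.63, 4.02 and 2.28 FPKM in LPS GMP. This was a 21.2-fold difference on the FPKM + 1 scale (4.41 ± 0.18, adjusted p = 6.03e-16). Cd180 itself was called too (11.4 ± 0.844 FPKM in LPS GMP-MoP, against 2.99 ± 0.192 FPKM in LPS GMP; SD, n = 3 each; 1.64).

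Promoters of the leading genes are shown because their transcripts differed most between the populations. They are the 250 bases before the annotated start of the 3 genes with the greatest log2 fold change in either direction among those with an entry, from RefSeq on GRCm38.p6, written on the gene's strand. The table held 22 of the 24 leading genes. Capitals mark matches on either strand to GATA factor words, which are AGATAA and its forms with T first, with G last or with both. Genes higher in LPS GMP-MoP were Chil3 (chr3:106167565-106167814, minus strand), Ly86 (chr13:37345095-37345344, plus strand) and Klf4 (chr4:55532476-55532725, minus strand).
Chil3: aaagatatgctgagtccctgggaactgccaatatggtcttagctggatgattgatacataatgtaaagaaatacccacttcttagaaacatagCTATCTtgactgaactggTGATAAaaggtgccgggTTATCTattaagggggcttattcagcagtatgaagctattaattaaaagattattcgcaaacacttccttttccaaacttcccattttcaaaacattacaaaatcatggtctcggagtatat
Ly86: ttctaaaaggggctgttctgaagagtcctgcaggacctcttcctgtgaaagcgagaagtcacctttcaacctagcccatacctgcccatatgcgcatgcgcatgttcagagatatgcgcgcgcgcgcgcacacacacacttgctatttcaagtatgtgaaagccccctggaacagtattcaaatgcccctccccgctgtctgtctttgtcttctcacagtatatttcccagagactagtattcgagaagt
Klf4: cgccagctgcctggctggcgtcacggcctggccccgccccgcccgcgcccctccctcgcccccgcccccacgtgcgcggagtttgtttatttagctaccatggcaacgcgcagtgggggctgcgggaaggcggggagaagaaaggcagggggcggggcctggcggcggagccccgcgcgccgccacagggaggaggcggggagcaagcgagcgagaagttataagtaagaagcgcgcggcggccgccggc
Genes lower in LPS GMP-MoP were Prss34 (chr17:25298144-25298393, plus strand), Cpa3 (chr3:20242182-20242431, minus strand) and Epx (chr11:87875537-87875786, minus strand).
Prss34: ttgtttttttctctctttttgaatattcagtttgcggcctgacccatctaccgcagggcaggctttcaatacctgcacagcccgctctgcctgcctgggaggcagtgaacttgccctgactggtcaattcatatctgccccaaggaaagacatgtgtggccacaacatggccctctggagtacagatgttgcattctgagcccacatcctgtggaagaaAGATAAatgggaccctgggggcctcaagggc
Cpa3: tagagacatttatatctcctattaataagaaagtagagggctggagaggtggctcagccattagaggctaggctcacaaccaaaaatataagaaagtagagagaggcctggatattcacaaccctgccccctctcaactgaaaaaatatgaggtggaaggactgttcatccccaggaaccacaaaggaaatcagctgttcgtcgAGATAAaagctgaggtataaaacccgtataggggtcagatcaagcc
Epx: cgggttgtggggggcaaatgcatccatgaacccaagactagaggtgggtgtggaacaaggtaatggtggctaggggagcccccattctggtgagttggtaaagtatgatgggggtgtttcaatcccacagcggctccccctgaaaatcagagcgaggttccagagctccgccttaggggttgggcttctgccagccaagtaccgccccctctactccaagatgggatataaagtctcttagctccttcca
A GATA word was present in the windows of Chil3 (3 matches), Prss34 (1) and Cpa3 (1) and not in those of Ly86, Klf4 or Epx. Such a match is a stretch of letters, not a bound site. The words occurred in 20.8% of 173 promoters of genes called higher, 24.4% of 275 of genes called lower, 16.9% of 8472 promoters of genes in the table and 27.1% of all 27025 promoters. The word GAGGAA, recognised by ETS factors such as PU.1, occurred in 28.9% of promoters called higher, 28.7% called lower and 22.7% of those in the table. The C/EBP word TTGCNNAA, where N is any base, occurred in 12.1%, 8.73% and 7.53% of the same sets.

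Csf1r, Ly6c2 and F13a1 were also among the 12 leading higher genes. Csf1r encodes the receptor for M-CSF, the growth factor of monocytes and macrophages, and had 51.4, 48.96 and 42.1 FPKM in LPS GMP-MoP, against 5.997, 5.41 and 4.22 FPKM in LPS GMP (2.97 ± 0.11, adjusted p = 1.40e-16). Ly6c2, which encodes the monocyte and myeloid surface antigen Ly6C, had 2572, 2319 and 2158 FPKM in LPS GMP-MoP, against 301, 236 and 169 FPKM in LPS GMP (3.35 ± 0.25, adjusted p = 5.87e-11). F13a1, the catalytic subunit of coagulation factor XIII and abundant in monocytes, had 358, 299 and 255 FPKM in LPS GMP-MoP, against 48.3, 40.3 and 31.3 FPKM in LPS GMP (2.90 ± 0.13, adjusted p = 2.85e-15). The groups did not overlap for any of these. Ly6C and the M-CSF receptor are antigens often used to sort such progenitors. Whether they defined these populations is not given in the sources used here. Ly6c2 shared 23.7% of its words with other genes, most with Ly6c1. It was also high in the libraries labelled naive proNeu1 (mean 1609 FPKM) and naive proNeu2 (1808 FPKM), against 2228 FPKM in those labelled naive cMoP.

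The other leading higher genes were Ly6a2, Apba1, Ifi209, AI839979 and Fcnb. Ly6a2, of the Ly6 surface antigen family, had 268, 237 and 223 FPKM in LPS GMP-MoP, against 19.9, 15.1 and 8.56 FPKM in LPS GMP (4.04). Apba1, which encodes a neuronal adaptor protein of the Mint family, had 15.7, 13.8 and 13.4 FPKM in LPS GMP-MoP, against 0.409, 0.286 and 0.253 FPKM in LPS GMP (3.54). Fcnb, a ficolin gene of the myeloid lineage, had 77.99, 59.1 and 68.9 FPKM in LPS GMP-MoP, against 11.2, 10.7 and 5.198 FPKM in LPS GMP (2.85). These were all above the LPS GMP libraries. Ifi209, an interferon-inducible gene of the p200 family, stood at 56.98 ± 4.24 FPKM in LPS GMP-MoP, against 5.34 ± 0.5604 FPKM in LPS GMP (3.20), but shared 47.2% of its words with other genes, most with Ifi214. AI839979 was at 17.7 ± 1.296 FPKM in LPS GMP-MoP, against 1.07 ± 0.147 FPKM in LPS GMP (3.18).

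**Figure D1:**
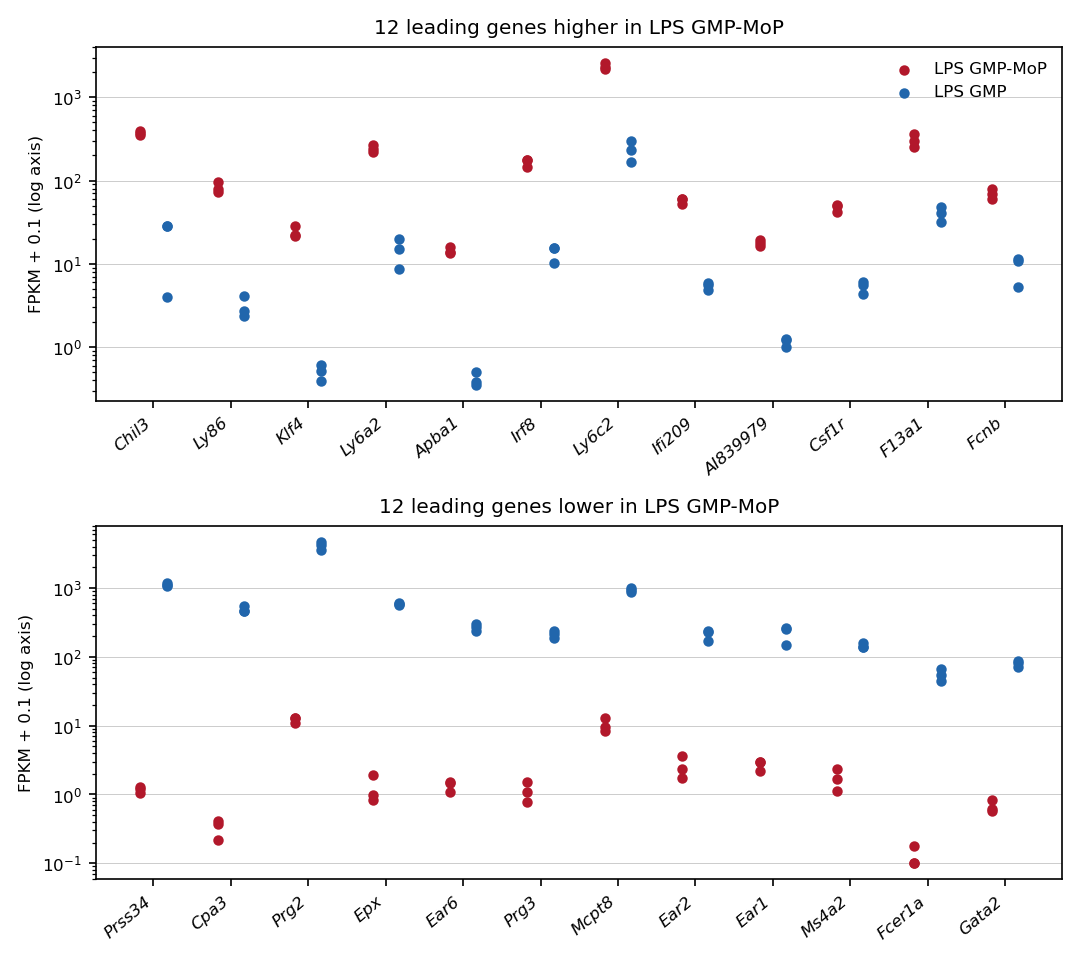
FPKM plus 0.1 on a log axis for each library of LPS GMP-MoP (red) and LPS GMP (blue), for the 12 leading genes higher (top) and the 12 lower (bottom) in LPS GMP-MoP. The 3 libraries of one population lay apart from the 3 of the other for every gene shown, as the choice of leading genes required.

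Most measured monocyte markers were higher in LPS GMP-MoP. Of 19 measured monocyte markers, 11 were called higher and 0 lower, against 1.94% of all genes called higher, and 8 were not called. The log2 fold changes of all 19 were above 0 with a median of 1.87. Besides those already named, the perforin-like Mpeg1 (108 ± 7.601 FPKM in LPS GMP-MoP, against 18.2 ± 3.94 FPKM in LPS GMP), the lectin Lgals3 (14.6 ± 2.11 FPKM in LPS GMP-MoP, against 2.95 ± 1.51 FPKM in LPS GMP) and the chemokine receptor Ccr2, which takes monocytes out of the marrow (47.03 ± 6.42 FPKM in LPS GMP-MoP, against 13.2 ± 0.575 FPKM in LPS GMP), were called. Cd14, the LPS co-receptor, was at 7.16 ± 1.61 FPKM in LPS GMP-MoP, against 3.49 ± 0.623 FPKM in LPS GMP and was not called (adjusted p = 0.0777), but it passed with voom on the recovered reads (1.09, adjusted p = 0.0307). Of 21 measured lysosomal genes, 7 were called higher and 1 lower (median 0.69). Cathepsin S (Ctss), which processes antigen in phagocytes, was at 32.7 ± 3.77 FPKM in LPS GMP-MoP, against 6.79 ± 1.82 FPKM in LPS GMP (2.14). Cathepsin C (Ctsc), which activates granule proteases, was at 66.1 ± 11.6 FPKM in LPS GMP-MoP, against 12.6 ± 0.166 FPKM in LPS GMP (2.29). Lysozyme (Lyz2) was at 371 ± 60.2 FPKM in LPS GMP-MoP, against 78.7 ± 22.1 FPKM in LPS GMP (2.25), and Psap, a precursor of lysosomal activator proteins, at 398 ± 33.8 FPKM in LPS GMP-MoP, against 119.9 ± 11.9 FPKM in LPS GMP (1.72). The tetraspanin gene Cd63, which marks granule membranes and is abundant in basophils, went the other way, at 58.4 ± 9.25 FPKM in LPS GMP-MoP, against 324 ± 20.9 FPKM in LPS GMP (-2.46).

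Phagocyte oxidase and myeloid receptor genes counted 22 measured, with 8 called higher and 0 lower (median 0.61), against 1.94% of all genes called higher. Cybb, the membrane subunit of the phagocyte oxidase, was at 80.4 ± 5.01 FPKM in LPS GMP-MoP, against 14.8 ± 2.98 FPKM in LPS GMP (2.38). Its partner Cyba was at 241 ± 5.47 FPKM in LPS GMP-MoP, against 149 ± 14.2 FPKM in LPS GMP and was not called (0.69). Clec7a, which encodes the beta-glucan receptor Dectin-1, was at 35.3 ± 2.79 FPKM in LPS GMP-MoP, against 4.24 ± 0.759 FPKM in LPS GMP (2.80). Trem2, a lipid receptor of macrophages, was low in both, at 4.05 ± 0.553 FPKM in LPS GMP-MoP, against 0.0473 ± 0.0645 FPKM in LPS GMP (2.27). The adaptor genes Tyrobp (1.34) and Fcer1g (1.28), whose products carry the signal of many such receptors, were called higher as well.

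Neutrophil genes did not move as one. Of 10 measured neutrophil-lineage regulators, 0 were called higher, 3 lower and 7 were not called, with a median of -0.67, against 3.64% of all genes called lower. Cebpe, which directs the later granule programme, had 41.5, 41.1 and 54.5 FPKM in LPS GMP-MoP, against 109.6, 99.3 and 91.5 FPKM in LPS GMP (-1.12 ± 0.13, adjusted p = 1.37e-07). Ets1, a transcription factor best known from lymphocytes, had 3.73, 2.26 and 3.19 FPKM in LPS GMP-MoP, against 19.96, 18.1 and 16.9 FPKM in LPS GMP (-2.27), and Lmo4, a LIM-domain cofactor, had 46.8, 45.5 and 44.7 FPKM in LPS GMP-MoP, against 168, 153 and 147 FPKM in LPS GMP (-1.75). All 3 were lower in LPS GMP-MoP without overlap. Gfi1, the repressor that opposes the monocyte programme, had 31.6, 24.6 and 30.95 FPKM in LPS GMP-MoP, against 60.2, 55.3 and 60.5 FPKM in LPS GMP. Its log2 fold change of -0.997 ± 0.13 fell just short of the threshold of 1, although its adjusted p was 8.31e-07. It was called at -1.04 without LPS GMP replicate 2, -1.06 without LPS GMP-MoP replicate 1, -1.05 without LPS GMP-MoP replicate 3, and -1.02 with voom or with a pseudocount of 0.1. Cebpa, needed for GMP formation, was at 113 ± 0.572 FPKM in LPS GMP-MoP, against 163 ± 4.46 FPKM in LPS GMP (-0.53), and Spi1, which encodes PU.1, at 168 ± 9.25 FPKM in LPS GMP-MoP, against 122 ± 3.96 FPKM in LPS GMP (0.46), and neither reached the fold threshold.

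Of 14 measured primary granule genes, made at the promyelocyte stage, 2 were called higher, 0 lower and 12 were not called, with a median of 0.07, against 1.94% of all genes called higher. Elane (neutrophil elastase) had 4643, 4009 and 3851 FPKM in LPS GMP-MoP, against 3175, 2769.7 and 2434 FPKM in LPS GMP. Prtn3 (proteinase 3) had 5226, 4855 and 4951 FPKM in LPS GMP-MoP, against 3525, 3567 and 3141 FPKM in LPS GMP. Both were higher in every LPS GMP-MoP library, but by 0.58 ± 0.15 for Elane (adjusted p = 0.00299) and 0.56 ± 0.13 for Prtn3 (adjusted p = 0.00123), under the fold threshold. The called members were Ctsc and Hp (haptoglobin), the second at 665 ± 19.4 FPKM in LPS GMP-MoP, against 212 ± 20.4 FPKM in LPS GMP (1.65). Cathepsin G (Ctsg) was at 2486 ± 52.6 FPKM in LPS GMP-MoP, against 2395 ± 108 FPKM in LPS GMP (0.05) and Ms4a3 at 705 ± 6.35 FPKM in LPS GMP-MoP, against 764 ± 25.1 FPKM in LPS GMP (-0.11).

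Secondary and tertiary granule genes went both ways, with 6 of 23 measured members called higher, 1 lower and 16 not called. Over all genes, 1.94% were called higher and 3.64% lower. The higher ones were Chil3, Fcnb, Cybb, Lyz2, Hp and S100a8, several of which monocytes also express. In naive marrow, however, Chil3, Fcnb and S100a8 were far higher in the libraries labelled proNeu1 than in those labelled cMoP. Chil3 averaged 1930.4 FPKM in naive proNeu1, against 23.01 FPKM in naive cMoP. In the same groups Fcnb averaged 613.8 against 16.42 FPKM, and S100a8 10885 against 8.11 FPKM. Which lineage these calls reflect was not tested. S100a8, a calprotectin subunit, had 786, 773 and 690.02 FPKM in LPS GMP-MoP, against 332, 420.4 and 146 FPKM in LPS GMP (1.45 ± 0.57, adjusted p = 0.0478). This call was lost without any 1 of 5 of the 6 libraries, to 1.00 (adjusted p = 0.239) without LPS GMP replicate 3. Its partner S100a9 had 209, 276 and 183 FPKM in LPS GMP-MoP, against 247, 327 and 59.3 FPKM in LPS GMP, and the ranges overlapped (adjusted p = 0.702). Camp (cathelicidin) had 11.1, 24.1 and 6.16 FPKM in LPS GMP-MoP, against 48.2, 49.4 and 5.37 FPKM in LPS GMP, Ngp had 21.2, 48.04 and 10.5 FPKM in LPS GMP-MoP, against 92.2, 87.8 and 8.04 FPKM in LPS GMP, and Ltf (lactoferrin) had 6.57, 14.8 and 4.18 FPKM in LPS GMP-MoP, against 25.4, 22.5 and 1.798 FPKM in LPS GMP. LPS GMP replicate 3 was low for all of these, and none was called. LPS GMP-MoP replicate 3 was also the lowest of its group for each of them. Without LPS GMP replicate 3 alone, Camp stood at -1.94 (adjusted p = 0.0201) and Ngp at -1.97 (adjusted p = 0.0321), which passed. Without LPS GMP-MoP replicate 3 alone, Camp stood at -0.53 (adjusted p = 0.648) and Ngp at -0.35 (adjusted p = 0.791). Leaving out both libraries numbered 3 was not run, so these passes cannot be separated from the unbalanced omission. Pglyrp1, a peptidoglycan-binding protein, was the 1 member called lower, at 67.2 ± 5.94 FPKM in LPS GMP-MoP, against 136 ± 16.6 FPKM in LPS GMP. Its fold change lay at the threshold (-1.002), and the call was lost without LPS GMP replicate 1 (-0.99) or 2 (-0.92), without LPS GMP-MoP replicate 2 (-0.94) or 3 (-0.999), and with median-of-ratios scaling (-0.94). The list counted 8 higher and 0 lower without LPS GMP replicate 2, and 5 higher and 3 lower without LPS GMP replicate 3. Of the 12 measured mature neutrophil markers, limma called 0 in either direction. At an unadjusted p under 0.05, 2 were higher and 1 lower, and voom called 1 higher.

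**Figure D2:**
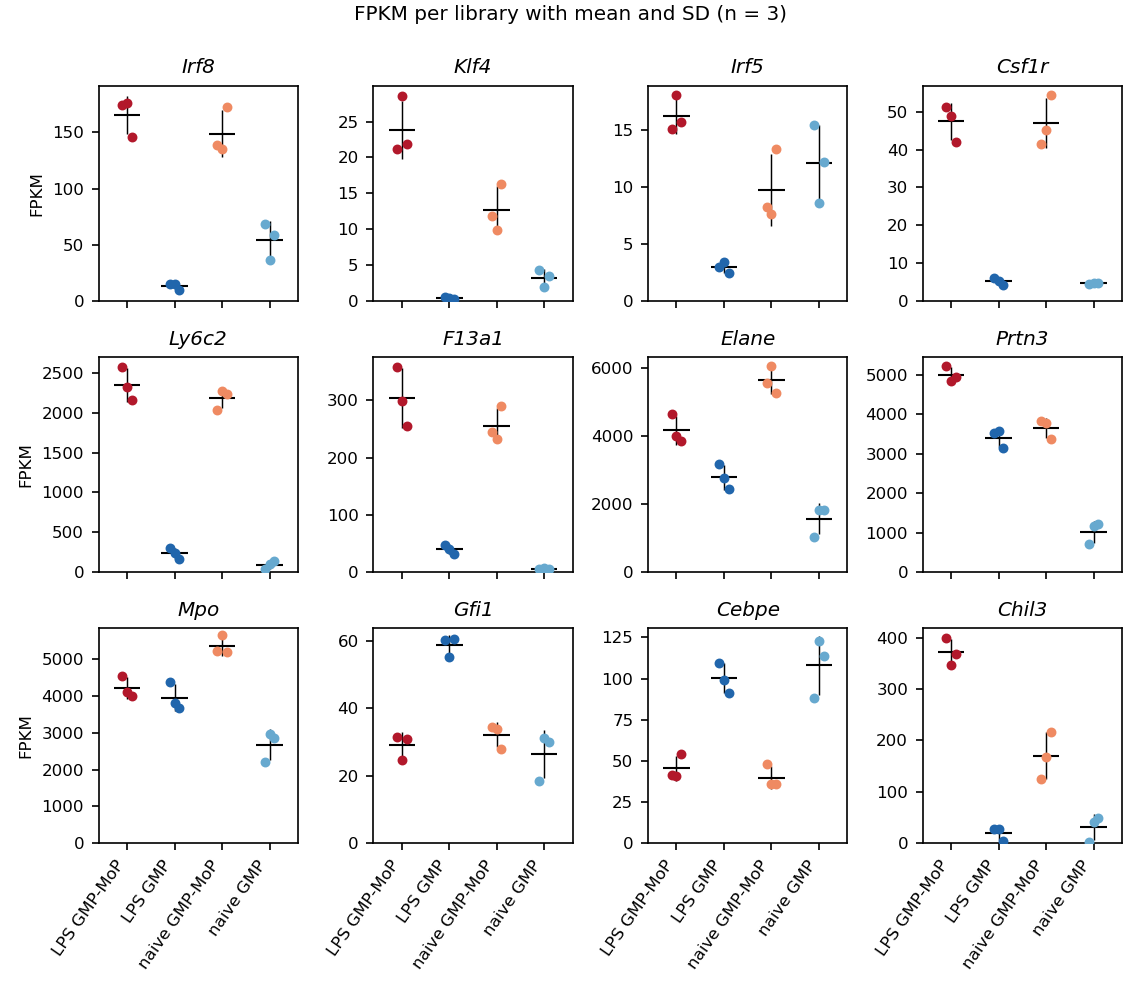
FPKM of 12 lineage genes in each library of LPS GMP-MoP, LPS GMP, naive GMP-MoP and naive GMP, with the mean (bar) and SD (n = 3). Irf8, Klf4 and Csf1r were high in both GMP-MoP groups, Irf5 was lowest in LPS GMP, and Elane and Prtn3 were less far apart after LPS than without it.

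Part of the stem and early progenitor programme was lower in LPS GMP-MoP. Of 20 measured genes, 0 were called higher, 8 lower and 12 were not called, against 3.64% of all genes called lower. Log2 fold changes were below 0 for 19 (median -0.89). The lowest was that of Gata2 (-5.67), described below with the genes of basophils, mast cells and eosinophils. Cd34, which encodes a surface antigen of progenitors, had 47.9, 46.99 and 36.3 FPKM in LPS GMP-MoP, against 99.5, 96.1 and 96.8 FPKM in LPS GMP (-1.15 ± 0.10, adjusted p = 7.75e-10). Cd27, a receptor of the tumour necrosis factor receptor family, was at 11.9 ± 2.73 FPKM in LPS GMP-MoP, against 44.3 ± 4.78 FPKM in LPS GMP (-1.83), and the homeobox gene Hoxa9, which sustains immature myeloid cells, at 4.66 ± 0.4005 FPKM in LPS GMP-MoP, against 14.9 ± 0.431 FPKM in LPS GMP (-1.49). Kit, the stem cell factor receptor, had 41.6, 35.7 and 35.3 FPKM in LPS GMP-MoP, against 69.9, 61.3 and 59.8 FPKM in LPS GMP, which did not overlap but was under the fold threshold (-0.75). Flt3, a receptor of early progenitors, was low in both at 2.52 ± 0.791 FPKM in LPS GMP-MoP, against 4.79 ± 0.765 FPKM in LPS GMP (-0.73). Whether the products of Cd34, Kit or Flt3 were used to sort these populations is not given in the sources used here. Myb, a factor of immature blood cells, was at 131 ± 11.4 FPKM in LPS GMP-MoP, against 233 ± 18.97 FPKM in LPS GMP (-0.83) and Myc at 74.1 ± 2.15 FPKM in LPS GMP-MoP, against 128 ± 5.34 FPKM in LPS GMP (-0.78), also not called.

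Among 17 measured growth factor receptor genes, 2 were called higher, 3 lower and 12 were not called, against 1.94% of all genes called higher and 3.64% lower. Il6ra, the interleukin-6 receptor, was higher with Csf1r, at 23.6 ± 0.763 FPKM in LPS GMP-MoP, against 5.34 ± 0.258 FPKM in LPS GMP (1.96 ± 0.07). Csf3r, the receptor for the neutrophil growth factor G-CSF, was at 50.9 ± 4.501 FPKM in LPS GMP-MoP, against 50.99 ± 2.14 FPKM in LPS GMP (-0.00 ± 0.09, adjusted p = 0.981). Csf2ra, a GM-CSF receptor subunit, was at 126 ± 3.71 FPKM in LPS GMP-MoP, against 64.3 ± 6.28 FPKM in LPS GMP, just under the threshold at 0.97, and passed it at 1.03 without LPS GMP replicate 1 and with median-of-ratios scaling. Lower were Il1rl1, the interleukin-33 receptor of mast cells and basophils, and Il5ra, the interleukin-5 receptor of eosinophils. Il1rl1 had 0.0337, 0.01897 and 0 FPKM in LPS GMP-MoP, against 11.2, 9.75 and 9.57 FPKM in LPS GMP, and Il5ra had 0, 0.0272 and 0 FPKM in LPS GMP-MoP, against 4.93, 4.11 and 4.86 FPKM in LPS GMP. The third was Csf2rb2, an interleukin-3 receptor subunit, at 5.56 ± 0.235 FPKM in LPS GMP-MoP, against 12.4 ± 0.867 FPKM in LPS GMP (-1.03), a call lost at -0.98 without LPS GMP replicate 1 and at -0.97 with median-of-ratios scaling.

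All 12 leading genes lower in LPS GMP-MoP were genes of basophils, mast cells or eosinophils, or Gata2. Prss34, a serine protease of basophils and mast cells (chromosome 17, 25298394 to 25300165), had 0.968, 1.17 and 1.11 FPKM in LPS GMP-MoP, against 1199, 1115 and 1054 FPKM in LPS GMP (-9.07 ± 0.32, adjusted p = 4.72e-17). Cpa3, the mast cell carboxypeptidase, had 0.119, 0.313 and 0.276 FPKM in LPS GMP-MoP, against 543, 458 and 461 FPKM in LPS GMP (-8.62 ± 0.29, adjusted p = 1.70e-17). Prg2, the major basic protein of eosinophil granules, had 12.8, 13.04 and 10.96 FPKM in LPS GMP-MoP, against 4174, 4709 and 3580.3 FPKM in LPS GMP (-8.29 ± 0.53, adjusted p = 3.71e-12). Every LPS GMP-MoP library was at a small fraction of the LPS GMP level. Epx (eosinophil peroxidase) had 0.728, 1.81 and 0.876 FPKM in LPS GMP-MoP, against 590.3, 599 and 567 FPKM in LPS GMP, and the basophil protease Mcpt8 had 8.199, 12.7 and 9.504 FPKM in LPS GMP-MoP, against 985, 924 and 866 FPKM in LPS GMP. Fcer1a, the binding chain of the IgE receptor, was listed at 0 in 2 of the 3 LPS GMP-MoP libraries and had 0, 0 and 0.08001 FPKM in LPS GMP-MoP, against 67.3, 54.8 and 44.9996 FPKM in LPS GMP. Gata2, the transcription factor of these lineages and of stem cells, had 0.485, 0.722 and 0.5095 FPKM in LPS GMP-MoP, against 86.6, 79.9 and 70.7 FPKM in LPS GMP (-5.67 ± 0.17, adjusted p = 2.83e-18). The others were Ear6 (-6.90), Prg3 (-6.74), Ear2 (-5.96), Ear1 (-5.92) and the IgE receptor chain Ms4a2 (-5.82). Ear1 shared 73.6% and Ear2 60.5% of their words with other genes, so reads may be split among these ribonuclease copies.

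By list, 13 of 14 measured basophil and mast cell markers were called lower in LPS GMP-MoP, 0 higher and 1 was not called, with a median of -3.52. All 9 measured eosinophil markers were called lower (median -5.96), against 3.64% of all genes. The summed level of the basophil and mast cell list was 904 to 1102 FPKM in LPS GMP-MoP, against 3743 to 4309 FPKM in LPS GMP. Its largest member in LPS GMP-MoP was Srgn (serglycin), which neutrophils also store, at 937 ± 96.96 FPKM in LPS GMP-MoP, against 987 ± 55.95 FPKM in LPS GMP. The eosinophil list summed to 70.7 to 79.6 FPKM in LPS GMP-MoP, against 5012 to 6470 FPKM in LPS GMP. Cebpe, described above among the neutrophil regulators, is also on that list and was its largest member in LPS GMP-MoP, at 45.7 ± 7.61 FPKM in LPS GMP-MoP, against 100.1 ± 9.11 FPKM in LPS GMP. In LPS GMP the eosinophil list held 1.16 to 1.47% of the summed FPKM and the basophil and mast cell list 0.865 to 1.00%.

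Some markers of further lineages were also lower in LPS GMP-MoP, from lower levels, where 3.64% of all genes were called lower. Erythroid and megakaryocyte markers had 7 of 17 measured members called lower, 0 higher and 10 not called. Itga2b, the platelet integrin, had 0.402, 0.283 and 0.581 FPKM in LPS GMP-MoP, against 53.04, 47.7 and 42.1 FPKM in LPS GMP (-5.10), and the erythroid and megakaryocyte factor Gata1 had 0.0606, 0.222 and 0.08397 FPKM in LPS GMP-MoP, against 11.97, 10.9 and 11.5 FPKM in LPS GMP (-3.48). Neither overlapped between groups. The summed level of this list was 41.7 to 163 FPKM in LPS GMP-MoP, against 150.2 to 314 FPKM in LPS GMP, and these ranges overlapped. Dendritic cell and MHC class II genes had 4 of 12 lower, 0 higher and 8 not called. Cd74, the invariant chain, had 0.468, 1.12 and 0.338 FPKM in LPS GMP-MoP, against 46.3, 45.2 and 14.9 FPKM in LPS GMP (-4.34), and the class II chain H2-Aa had 0.204, 0.4598 and 0.637 FPKM in LPS GMP-MoP, against 27.6, 29.6 and 10.002 FPKM in LPS GMP (-3.90). The third LPS GMP library was the lowest of its group for both. That list summed to 129 to 147 FPKM in LPS GMP-MoP, against 205 to 275 FPKM in LPS GMP. Macrophage and stromal markers had 5 of 13 lower, 0 higher and 8 not called, among them Apoe (5.33 ± 1.53 FPKM in LPS GMP-MoP, against 62.8 ± 15.2 FPKM in LPS GMP; -3.33) and the complement genes C1qa (-1.72), C1qb (-1.47) and C1qc (-1.62). They summed to 121 to 129 FPKM in LPS GMP-MoP, against 155 to 181 FPKM in LPS GMP. Lymphoid markers had 2 of 10 lower, 0 higher and 8 not called, and summed to 303 to 376 FPKM in LPS GMP-MoP, against 416 to 522 FPKM in LPS GMP. Nkg7, which is also on the primary granule list, made up most of that sum, at 303 ± 40.9 FPKM in LPS GMP-MoP, against 427 ± 39.6 FPKM in LPS GMP (-0.50, not called). None of the defining markers of the 6 lists was at 0 in all 3 libraries of LPS GMP-MoP or of LPS GMP. Their part in the other results was not tested.

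**Figure D3:**
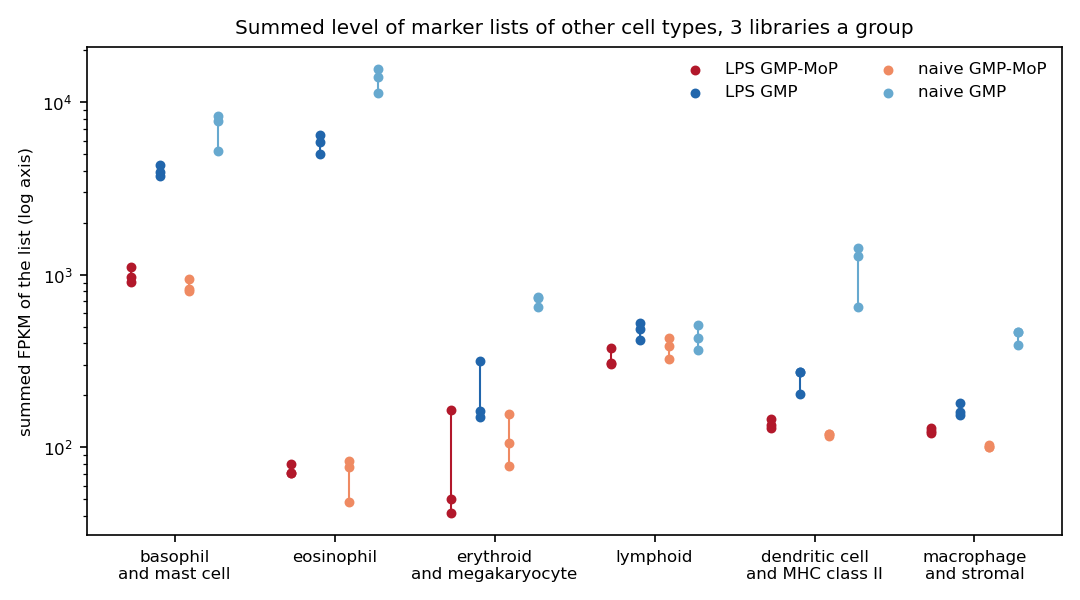
Summed FPKM, on a log axis, of 6 marker lists of other cell types in LPS GMP-MoP, LPS GMP, naive GMP-MoP and naive GMP; points are the 3 libraries and the line is their range. The eosinophil list stood between 70.7 and 79.6 FPKM in LPS GMP-MoP and between 5012 and 6470 FPKM in LPS GMP.

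Genes of the response to bacteria that were called at 2 days were higher in LPS GMP-MoP, where 1.94% of all genes were called higher. Of 17 measured LPS sensing genes, 2 were called higher, Ly86 and Cd180, 0 lower and 15 were not called. The receptor Tlr4 was at 5.34 ± 0.425 FPKM in LPS GMP-MoP, against 5.73 ± 0.367 FPKM in LPS GMP (-0.09 ± 0.11, adjusted p = 0.583) and its adaptor Myd88 at 43.2 ± 3.804 FPKM in LPS GMP-MoP, against 32.5 ± 3.04 FPKM in LPS GMP (0.40). Of 12 NF-kB and inflammatory genes, 1 was called higher and 0 lower, the inflammasome sensor Nlrp3, which had 2.26, 3.07 and 2.09 FPKM in LPS GMP-MoP, against 0.0402, 0.2296 and 0.0597 FPKM in LPS GMP (1.64). Of 14 emergency granulopoiesis and STAT3 genes, 2 were called higher, Hp and the acute-phase gene Saa3, and 0 lower. Saa3 had 3.72, 2.84 and 3.68 FPKM in LPS GMP-MoP, against 0.438, 0.4502 and 0.6503 FPKM in LPS GMP (1.54), low in both populations and higher in every LPS GMP-MoP library. Without LPS, these 3 lists had 3, 2 and 2 members called higher in naive GMP-MoP, and 1, 0 and 0 lower. Over all genes, the naive comparison called 2.02% higher and 6.53% lower. The difference, LPS minus naive, was called positive for 2, 1 and 1 members, against 3.28% of all genes, with medians of 0.10, -0.02 and -0.07. The 1 of the last list was Saa3. Its difference call was lost with voom (0.39, adjusted p = 0.879) and with a pseudocount of 0.1 (adjusted p = 0.314). Ly86, also on the monocyte marker list, was at 72.0 FPKM in naive GMP-MoP, against 10.6 FPKM in naive GMP. Hp is also on both granule lists.

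The few called members of the interferon gene lists were lower in LPS GMP-MoP, while Ifi209, on neither list, was higher. Of 24 measured type I interferon genes, 0 were called higher, 3 lower and 21 were not called (median -0.08), against 3.64% of all genes called lower. Without LPS, 6 of the 24 were called lower and 0 higher (median -0.67), where 6.53% of all genes were called lower and 2.02% higher. The difference, LPS minus naive, was above 0 for 23 of them and called positive for 3, against 3.28% of all genes. Ddx58, which encodes the RNA sensor RIG-I, was at 2.08 ± 0.568 FPKM in LPS GMP-MoP, against 6.996 ± 0.475 FPKM in LPS GMP (-1.39), and Rtp4 at 0.896 ± 0.951 FPKM in LPS GMP-MoP, against 3.44 ± 1.25 FPKM in LPS GMP (-1.30). The regulator Irf7 was at 1.17 ± 0.518 FPKM in LPS GMP-MoP, against 3.45 ± 0.738 FPKM in LPS GMP (-1.05, adjusted p = 0.00403), but at -0.92 without LPS GMP replicate 3, -0.91 without LPS GMP-MoP replicate 2 and -0.999 after median-of-ratios scaling, which ended its call. Without LPS, 3 of 14 interferon-gamma and GTPase genes were called lower and 1 higher, and after LPS 2 were lower and 0 higher. One was Cd274, the checkpoint ligand PD-L1, at 1.08 ± 0.194 FPKM in LPS GMP-MoP, against 4.098 ± 0.7003 FPKM in LPS GMP (-1.29), and the other Tgtp2, a GTPase (-1.14).

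Of 13 immediate early genes, 1 was called higher and 1 lower, where 1.94% of all genes were called higher and 3.64% lower. Zfp36, an RNA-decay factor, was higher, at 6.42 ± 0.492 FPKM in LPS GMP-MoP, against 2.25 ± 0.289 FPKM in LPS GMP (1.19, adjusted p = 0.0142). Its adjusted p was 0.0682 without both LPS libraries numbered 2. The MAP kinase phosphatase Dusp6 was lower, at 1.85 ± 0.993 FPKM in LPS GMP-MoP, against 7.58 ± 1.59 FPKM in LPS GMP (-1.63). Among genes of growth and metabolism, cyclin D2 (Ccnd2) was the 1 called of 28 cell cycle genes, against 3.64% of all genes called lower, at 14.5, 14.1 and 13.9 FPKM in LPS GMP-MoP, against 31.4, 32.05 and 33.02 FPKM in LPS GMP (-1.13 ± 0.10). The other cell cycle genes were mostly slightly above 0, 24 of 28 with a list median of 0.18, and 17 were higher at an unadjusted p under 0.05, none past the fold threshold. Slc2a3, a glucose transporter, was the 1 called of 20 glycolysis genes, and it was lower (-1.28). With 3.64% of all genes called lower, 1 call in the cell cycle list and 1 in the glycolysis list lay near that share. Of 20 unfolded protein response genes and 39 cytosolic ribosomal protein genes, limma and voom called 0. At an unadjusted p under 0.05, 1 of the unfolded protein response genes was higher and 2 were lower, and 0 of the ribosomal protein genes.

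Of 20 adhesion and migration genes, 2 were called higher, 4 lower and 14 were not called, against 1.94% of all genes called higher and 3.64% lower. Itga1, a collagen-binding integrin, had 6.19, 6.5003 and 5.68 FPKM in LPS GMP-MoP, against 0.394, 0.267 and 0.221 FPKM in LPS GMP (2.46) and was higher with Ccr2. Lower were Itga2b, Cd63, the tetraspanin Cd9 (6.46 ± 0.992 FPKM in LPS GMP-MoP, against 29.9 ± 2.98 FPKM in LPS GMP; -2.05) and the chemokine receptor Ccr1 (-1.57). Ccr2, Itga2b and Cd63 were also counted in lists described above. Cxcr4, which holds cells in the marrow, was at 172 ± 9.44 FPKM in LPS GMP-MoP, against 116 ± 5.396 FPKM in LPS GMP (0.56) and was not called.

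**Figure D4:**
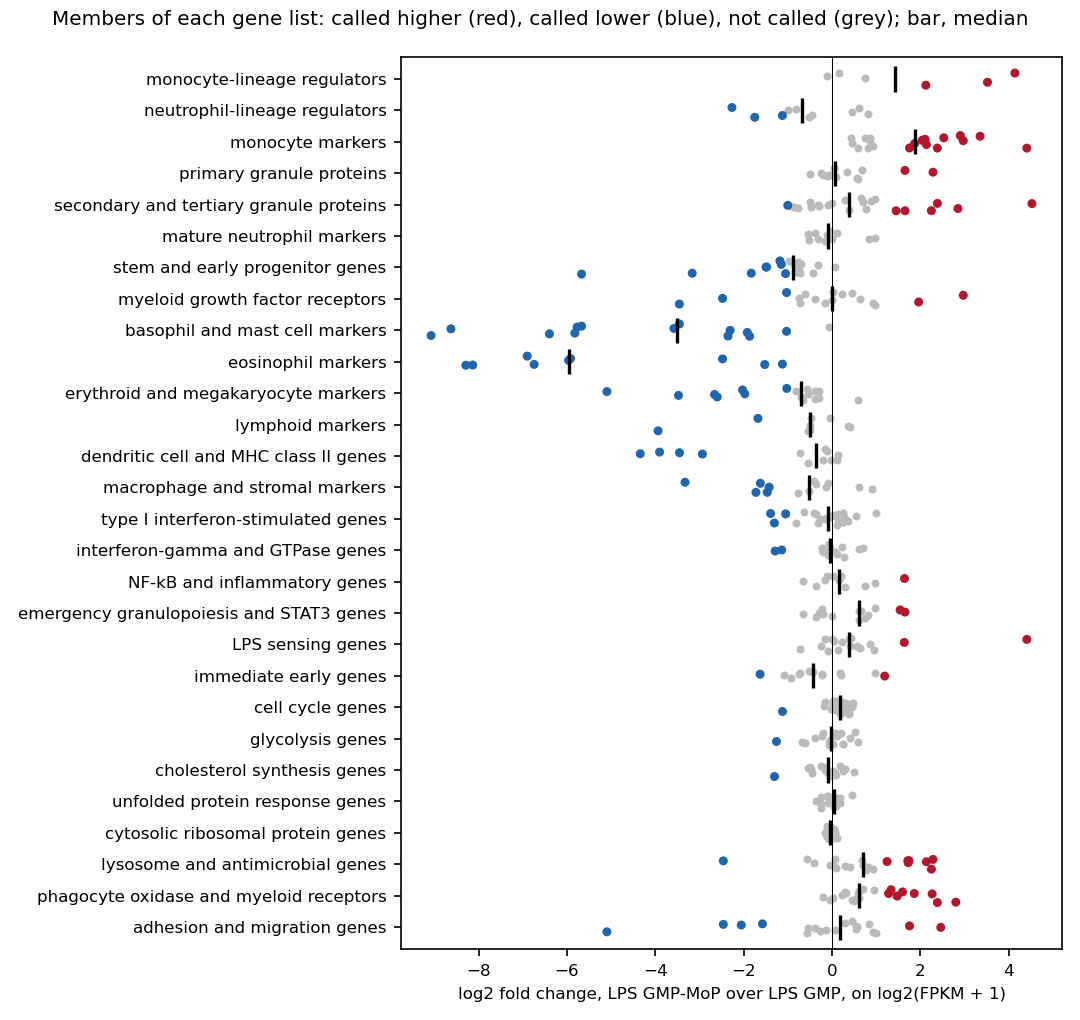
Log2 fold change, LPS GMP-MoP over LPS GMP, of every measured member of the 28 gene lists. Red points were called higher, blue lower, grey not called, and the black bar is the list median, which ran from -5.96 for eosinophil markers to 1.87 for monocyte markers.

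The same populations without LPS show which differences were also present in naive marrow. The naive comparison, which shares no library with the LPS one, called 230 genes higher in naive GMP-MoP than in naive GMP (2.02%) and 743 lower (6.53%). Of the 414 genes lower after LPS, 362 were also lower in the naive comparison, 87.4% of the LPS set and 48.7% of the naive set. Of the 221 higher after LPS, 112 were also higher in the naive comparison, 50.7% of the LPS set and 48.7% of the naive set, and 3 were called lower there. The difference between the comparisons, LPS minus naive, was tested itself. It was called positive for 373 genes (3.28%) and negative for 73 (0.641%). Of the 106 genes called higher after LPS and in neither direction without it, 52 had a difference called positive.

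Irf8, Klf4 and Irf5 were further apart between the populations after LPS. Irf8 had 139, 135 and 173 FPKM in naive GMP-MoP, against 68.7, 36.998 and 58.5 FPKM in naive GMP, a log2 fold change of 1.46 against 3.52 after LPS, and the difference was 2.05 ± 0.25 (adjusted p = 1.80e-06). Klf4 had 11.8, 9.897 and 16.4 FPKM in naive GMP-MoP, against 4.29, 2.003 and 3.55 FPKM in naive GMP (1.69 against 4.14 after LPS), with a difference of 2.45 ± 0.26 (adjusted p = 2.16e-07). Irf5 had 8.26, 7.68 and 13.4 FPKM in naive GMP-MoP, against 15.4, 8.63 and 12.3 FPKM in naive GMP, and these naive ranges overlapped. Its difference was 2.41 ± 0.26 (adjusted p = 3.80e-07), with naive GMP above LPS GMP for each of the 3 genes. All 6 measured monocyte-lineage regulators had differences above 0, and 4 were called, Id2 among them (3.14). Of 19 monocyte markers, 8 differences were called positive and 2 negative. Over all genes, 3.28% of differences were called positive and 0.641% negative. Ctss (2.86 ± 0.35), Lgals3 (3.39 ± 0.41), Mpeg1 (2.37 ± 0.25) and Ccr2 (1.38 ± 0.26) were among the positive ones, and so were the lysosomal genes Ifi30 (3.13) and Psap (1.71). The differences of Ctss and Lgals3 exceeded their fold changes after LPS, so both genes were below 0 in the naive comparison.

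F13a1 and Ly6c2 were the monocyte markers with negative differences. F13a1 was at 256 ± 30.7 FPKM in naive GMP-MoP, against 6.303 ± 0.953 FPKM in naive GMP (5.14 against 2.90 after LPS; difference -2.23 ± 0.18, adjusted p = 4.21e-09). Its level in LPS GMP, 39.97 FPKM, exceeded that in naive GMP, while the GMP-MoP levels were closer. Ly6c2 was at 2183 ± 125 FPKM in naive GMP-MoP, against 93.02 ± 48.02 FPKM in naive GMP, with a difference of -1.35 ± 0.35 (adjusted p = 0.00655). The Ly6c2 call was lost without naive GMP replicate 1, at -0.84, and in a fit of the compared groups alone, with an adjusted p of 0.0664. The lectin receptor Clec5a (-2.14 ± 0.22) and the pyrin gene Mefv (-1.71 ± 0.10) were also higher in GMP-MoP in both settings and less so after LPS. Csf1r stood apart in both settings, with 3.05 without LPS and 2.97 after it (difference -0.08 ± 0.16, adjusted p = 0.755).

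The protease genes Elane and Prtn3 differed less between the populations after LPS. Elane was at 5638 ± 402 FPKM in naive GMP-MoP, against 1564 ± 456 FPKM in naive GMP (1.89 against 0.58 after LPS; difference -1.31 ± 0.21, adjusted p = 5.73e-05), and Prtn3 at 3659 ± 256 FPKM in naive GMP-MoP, against 1026 ± 278 FPKM in naive GMP (1.87 against 0.56; difference -1.32 ± 0.18, adjusted p = 8.84e-06). Of 14 primary granule genes, 13 had differences below 0 and these 2 were called, against 0.641% of all genes called negative. Gfi1 was at 32.2 ± 3.64 FPKM in naive GMP-MoP, against 26.6 ± 7.0999 FPKM in naive GMP, and its difference was -1.29 ± 0.18 (adjusted p = 1.21e-05). Ak4, a mitochondrial adenylate kinase, had the most negative difference of the genes reaching 10 FPKM, at -2.25 ± 0.19 (adjusted p = 8.08e-09). It had 3.91, 3.54 and 2.63 FPKM in LPS GMP-MoP, against 20.7, 17.9 and 18.4 FPKM in LPS GMP, but was at 12.5 ± 1.65 FPKM in naive GMP-MoP, against 12.1 ± 2.15 FPKM in naive GMP. Dusp6 was called as well (-1.29).

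Most positive differences came with a smaller gap after LPS. Of the 373, 288 had a smaller fold change in size after LPS, 257 were called lower in naive GMP-MoP, and 368 had a higher mean in naive GMP than in LPS GMP. The greatest among genes reaching 10 FPKM were Pf4 (platelet factor 4; 4.68 ± 0.33), Car1 (carbonic anhydrase of erythroid cells; 3.77 ± 0.31), H2-Aa (3.45 ± 0.46), Cavin2 (3.44 ± 0.18) and Cd74 (3.41 ± 0.50). Pf4 was at 0.293 ± 0.247 FPKM in naive GMP-MoP, against 206 ± 11.3 FPKM in naive GMP without LPS, and had 0.905, 0.556 and 1.198 FPKM in LPS GMP-MoP, against 11.1, 16.7 and 6.68 FPKM in LPS GMP after it. The calls of Cd74 (adjusted p = 0.206) and H2-Aa (adjusted p = 0.208) were lost with voom on the recovered reads. Car1 shared 20.1% of its words with a predicted gene. Flt3, at 1.45 ± 0.719 FPKM in naive GMP-MoP, against 20.2 ± 4.76 FPKM in naive GMP, had a difference of 2.41 ± 0.26 (adjusted p = 2.85e-07). Marker lists stood as follows in the same libraries. Eosinophil genes summed to 11384 to 15546 FPKM and dendritic cell and MHC class II genes to 651 to 1438 FPKM in naive GMP, above the LPS GMP ranges given before. Erythroid and megakaryocyte genes summed to 649.9 to 744 FPKM in naive GMP, and 12 of 17 had a difference called positive, against 3.28% of all genes. Lymphoid genes summed to 368 to 510.4 FPKM in naive GMP, overlapping the LPS GMP range, although 7 of 10 had a difference called positive. With voom the difference calls of Klf1 (adjusted p = 0.0621), Cd79a (0.263) and Vpreb1 (0.0704) were lost. A pseudocount of 0.1 also ended those of Cd79a (adjusted p = 0.0545) and Vpreb1 (0.0534). The part of these lists in the differences was not tested.

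**Figure D5:**
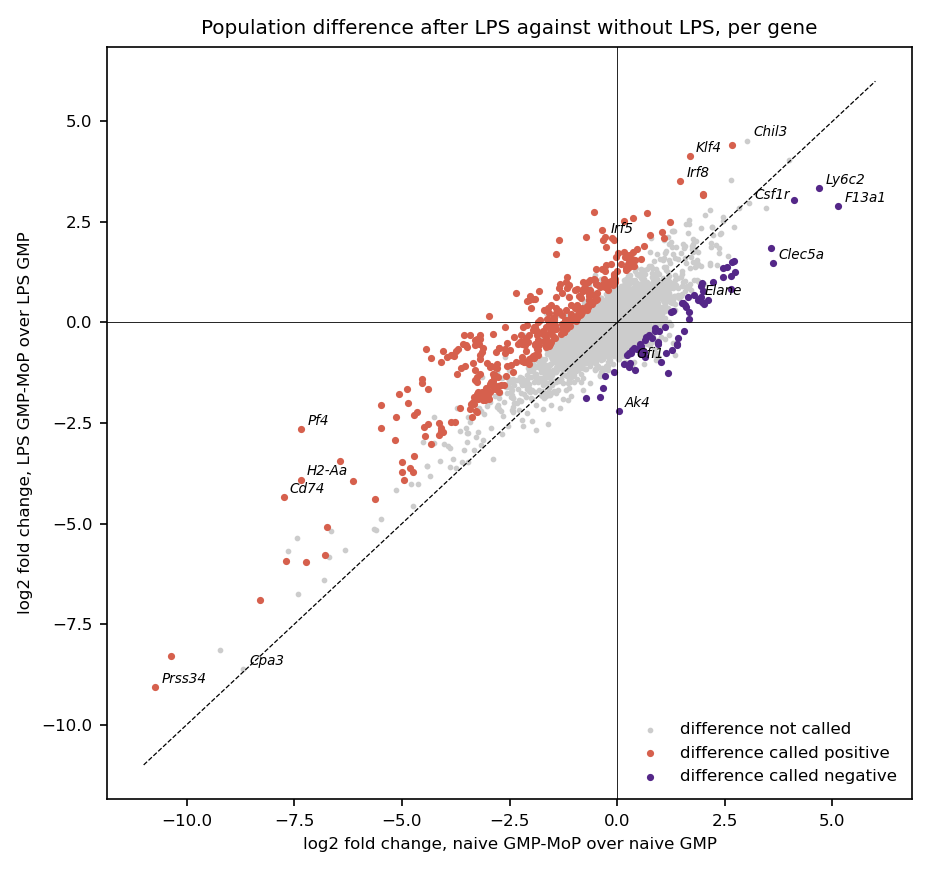
Log2 fold change of each of 11383 genes, LPS GMP-MoP over LPS GMP (vertical) against naive GMP-MoP over naive GMP (horizontal), on log2(FPKM + 1). Orange points had a difference called positive (373), purple negative (73), and the dashed line marks equal fold changes. Klf4 and Irf8 lie above the line and F13a1 and Ly6c2 below it.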

How the data were processed

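RNA of sorted mouse bone marrow progenitors gave 30 sequencing libraries in 10 groups of 3, from RNA taken with RNeasy Micro kits and made into libraries with a directional kit, per the labels' protocols. Per the submitters' processing notes, the authors used Trimmomatic 0.38.0, STAR 2.7.8, featureCounts 2.0.1 and the GRCm38/mm10 genome. The annotation and the strand setting are not given in the sources used here, so overlapping genes may share reads. The deposited values are FPKM of 11383 genes by symbol, made by the authors, with a lowest mean of 1.00 over the libraries, so weaker genes are not analysed here.

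Groups came from the labels. FPKM values were tested as log2(FPKM + 1) in R 4.3.3 by limma 3.58.1, trended on intensity, fitting the 30 libraries together. A filter of 1 FPKM in 3 libraries removed no gene. Whole reads behind the FPKM were recovered for 11383 of 11383 genes, within 0.02 reads (at most 0.1), against 0 of 100 shuffled rows, giving 23.6 to 41.3 M reads per library, and served only for depth and for voom. In data simulated for this comparison over 11383 genes, 99 of 100 genes changed by a log2 fold of 1.5 and 100 of 100 changed by 2 were called, with 1 unchanged gene. The changed genes were drawn only from those with a mean FPKM of at least 5. The simulated noise was independent between libraries, without an effect shared by same-numbered ones. These rates therefore do not cover weaker genes or such sharing.

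Deviations of same-numbered LPS libraries correlated across genes at 0.24 to 0.30 for all 3 pairs, so the numbers pair the LPS samples by the data, though no label says so. In naive libraries the correlations were -0.01 to 0.07. The main fit took no account of replicate numbers, and the replicate block did.

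Gene positions, and 31-base words shared with other genes, came from GENCODE M21 (GRCm38, the files' build), which held a single gene for 11208 symbols. Promoters came from RefSeq (GRCm38.p6). Further tools were matplotlib 3.10.9, scipy 1.17.1, pandas 2.3.3 and numpy 2.4.6 under Python 3.11.15. Named genes were the 12 leading each way with a higher mean of at least 10 FPKM and no overlap, up to 4 called per list, a panel of 20 and the 5 greatest differences each way, without predicted genes and antigen receptor segments. Defining markers were added, and other list members were chosen after their values were seen. The genes, the 28 lists and the comparisons were chosen with earlier results of these data known. Alternatives were a pseudocount of 0.1, median-of-ratios scaling, no low-value filter, a mean FPKM of at least 5, the compared groups alone, a replicate block, voom, each LPS library left out and both numbered 2 left out. Leaving out each naive library was chosen after seeing the data.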

Additional observations from a re-analysis of the deposited data

Results flagged for a closer look

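Results stand here because the population difference itself differed between LPS and naive marrow by limma's test (adjusted p under 0.05 and a log2 difference of at least 1 in size), with 373 genes positive and 73 negative. Among named genes it was 2.45 for Klf4, 2.05 for Irf8, 1.74 for Ly86, 1.19 for Ifi209 and 1.19 for AI839979, against -1.35 for Ly6c2, -2.23 for F13a1, -2.14 for Clec5a and -1.82 for Tmem119. The Ly6c2 call was lost without naive GMP replicate 1 (-0.84) and in a fit of the compared groups alone (adjusted p = 0.0664). For neutrophil and progenitor genes it was -1.31 for Elane, -1.32 for Prtn3, -1.29 for Gfi1, -2.25 for Ak4 and 2.41 for Flt3.

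For genes of other lineages it was 4.68 for Pf4, 3.77 for Car1, 3.45 for H2-Aa, 3.44 for Cavin2, 3.41 for Cd74, 1.66 for Prss34, 2.07 for Prg2, 1.40 for Ear6, 1.26 for Ear2, 1.77 for Ear1 and 1.01 for Fcer1a. With voom the calls of Cd74 (adjusted p = 0.206), H2-Aa (0.208), Prss34 (0.259), Ear6 (0.195), Ear2 (0.376), Ear1 (0.137) and Fcer1a (0.705) were lost. In a fit of the compared groups alone the calls of Prg2 (adjusted p = 0.145), Ear6 (0.0576), Ear2 (0.0673), Ear1 (0.0584) and Snora3 (0.0512) were lost, and with a pseudocount of 0.1 those of Prss34 (0.0852), Prg2 (0.0891), Ear6 (0.0986), Ear2 (0.140), Ear1 (0.0917) and Fcer1a (0.238). The Prg2 call was lost with the replicate block (adjusted p = 0.0593), without any 1 LPS library (adjusted p 0.0602 to 0.0940) and without any naive GMP library, and its difference was 0.94 without naive GMP-MoP replicate 3. The Ear6 call was lost without LPS GMP replicate 3 (adjusted p = 0.0711), LPS GMP-MoP replicate 2 (0.0609) or 3 (0.0549), and naive GMP replicate 2 (0.0845), with a difference of 0.91 without naive GMP-MoP replicate 3. The Ear2 call was lost without LPS GMP replicate 3 (adjusted p = 0.108), LPS GMP-MoP replicate 1 (0.0652) or 2 (0.112), and naive GMP replicate 2 (0.115) or 3 (0.0603), with a difference of 0.92 without naive GMP-MoP replicate 3. The Ear1 call was lost without LPS GMP replicate 3 (adjusted p = 0.0520), and its difference was 1.15 without naive GMP-MoP replicate 3. Fcer1a was listed at 0 in all 3 naive GMP-MoP libraries, and its call held on leaving out LPS GMP replicate 1 or naive GMP replicate 2 but was lost without any other library. Snora3 stood at -1.94, but all its words are shared with Rpl27a, so its reads may belong to that gene. The Snora3 call was lost without LPS GMP replicate 2 (adjusted p = 0.0683), LPS GMP-MoP replicate 1 (0.0662), naive GMP replicate 3 (0.0858) or naive GMP-MoP replicate 2 (0.0716).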

How the results depend on the processing

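Counts of genes moved most with the treatment of weakly expressed genes. In LPS GMP-MoP against LPS GMP, 640 genes were lower with a pseudocount of 0.1 and 185 among genes averaging 5 FPKM or more, and voom gave 347 higher and 644 lower. In the naive comparison 294 were lower at a mean of at least 5. The difference of differences had 134 negative calls with a pseudocount of 0.1, 153 positive ones at a mean of at least 5, and 137 negative ones with voom. Leaving out LPS libraries gave 210 to 234 higher and 384 to 434 lower, and leaving out LPS or naive libraries gave 329 to 429 positive and 56 to 98 negative differences. With the replicate block, 222 genes were higher and 418 lower, with 377 positive and 74 negative differences, and of the named genes the block changed no call other than the difference of Prg2 (2.07, adjusted p = 0.0593). No named gene changed direction past the threshold under any alternative run. Among the fold changes after LPS, calls of S100a8, Gfi1, Irf7, Pglyrp1, Csf2ra, Csf2rb2, Camp, Ngp and Cavin2 changed when 1 library was left out, and with 3 libraries a group such calls are imprecise. Cavin2, Car1, Dntt and Cd79a were called lower with a pseudocount of 0.1. The difference of Lyz2 was lost without LPS GMP replicate 3 (0.97) and under other single omissions. The causes were not tested.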
